A study of Mus musculus with 6 samples.

Results

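The 10 genes described here encode secreted products of Paneth cells: the lysozymes Lyz1 and Lyz2, the alpha-defensins Defa17, Defa22, Defa24 and Defa30, the protease Mmp7, the ribonuclease Ang4, the lectin Itln1 and the pentraxin Mptx2. They were chosen by name, as known products of this cell type, from the 38561 genes with counts in mouse small intestinal mucosa, and all 10 passed the filter on low counts that left 16425 genes. RNA-Seq was run on 3 pools labelled Rbm47_IKO, from mice with intestine-specific deletion of Rbm47, and on 3 wt pools. The labels give the tissue as small intestinal mucosa, and the paper gives it as jejunal mucosa. All mice were C57BL/6J, of both sexes and 8 to 12 weeks old, and each pool held RNA from 3 mice according to the labels. The study deleted Rbm47, which encodes an RNA-binding protein, with a constitutive villin-driven Cre, which acts across the intestinal epithelium, and its text gives the controls as mice with floxed Rbm47 where the labels give wild type. The question for these genes was whether the Paneth cell program differed between the genotypes.

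Paneth cells sit at the base of the small intestinal crypts, among the stem cells, and are not found along the villi. They store antimicrobial proteins in large granules and release them into the crypt lumen, and they also give the neighbouring stem cells growth and Wnt signals. Mouse alpha-defensins (cryptdins) are made as precursors that Mmp7 cleaves to active peptides, and their cysteines form the disulfide bonds of the mature peptide. In whole mucosa these genes are read among a large excess of enterocyte RNA, so that fewer Paneth cells and less RNA per Paneth cell cannot be told apart.

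The pools held 31560320 to 38951830 counts each. Vil1, the enterocyte marker whose promoter drives the Cre, was present in every pool at 3647 to 4762 CPM (counts scaled to a common library size). Rbm47 itself was not lower in the pools labelled Rbm47_IKO, at 616 ± 11.5 CPM (SD, n = 3) against 461 ± 11.1 in wt (log2 fold change 0.42 ± 0.10 SE, edgeR adjusted p = 0.0751). Its pools did not overlap, and it was called higher by DESeq2 (adjusted p = 0.00105) and by edgeR scaled to library size only (0.0473). A higher level goes against a label that names a deletion of this gene. The paper, by contrast, reports negligible Rbm47 mRNA and protein after its intestinal deletion. The counts are of the whole gene, and which exons were removed was not given in the sources used here, so whether the counted reads lie in the deleted part was not tested. Rbm47-IKO below means the pools labelled so.

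The defensin members lie in a cluster of 28 alpha-defensin genes at chr8:21025545-21735471 (GRCm38), a span of 709.9 kb, and their sequences decide how far their counts can be told apart. Their coding sequences, from GENCODE M21 transcripts without the stop codon, are shown 5′ to 3′, with capitals where a base differs from Defa24 in the alignment of the pair.
Defa24: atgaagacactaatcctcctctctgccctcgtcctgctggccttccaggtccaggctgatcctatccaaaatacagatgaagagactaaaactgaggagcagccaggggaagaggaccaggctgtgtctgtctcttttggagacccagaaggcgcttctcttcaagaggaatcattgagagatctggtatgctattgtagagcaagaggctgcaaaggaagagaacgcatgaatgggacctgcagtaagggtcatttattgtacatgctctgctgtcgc
Defa30: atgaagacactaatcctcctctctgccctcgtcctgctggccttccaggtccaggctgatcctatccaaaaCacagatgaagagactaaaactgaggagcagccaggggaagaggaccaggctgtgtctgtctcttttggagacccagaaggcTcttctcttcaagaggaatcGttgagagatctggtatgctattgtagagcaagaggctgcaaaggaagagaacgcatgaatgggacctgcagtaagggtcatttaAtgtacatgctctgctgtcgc
Defa17: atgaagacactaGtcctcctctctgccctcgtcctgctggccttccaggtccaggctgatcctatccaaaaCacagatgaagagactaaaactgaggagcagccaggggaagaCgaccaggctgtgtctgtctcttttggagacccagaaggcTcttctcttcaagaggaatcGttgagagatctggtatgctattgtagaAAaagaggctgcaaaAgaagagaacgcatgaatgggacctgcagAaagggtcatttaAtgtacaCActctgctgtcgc
Defa22: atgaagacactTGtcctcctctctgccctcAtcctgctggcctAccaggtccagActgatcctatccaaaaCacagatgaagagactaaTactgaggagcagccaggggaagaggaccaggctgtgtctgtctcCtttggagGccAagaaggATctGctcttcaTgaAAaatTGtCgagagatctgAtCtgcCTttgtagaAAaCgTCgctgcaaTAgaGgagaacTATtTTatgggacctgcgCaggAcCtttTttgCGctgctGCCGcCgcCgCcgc

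Each of these runs is 279 bases. Defa30 differs from Defa24 at 4 of them, Defa17 at 12 and Defa22 at 49, and most of the capitals of Defa22 fall in the 3′ part, which encodes the mature peptide. The coding sequence of Defa17 is identical to that of Defa3, a further gene of the cluster. Of all stretches of 50 bases in the transcript, 71.9% were found in no other gene for Defa24, 47.6% for Defa30 and 25.1% for Defa22, but 8.05% for Defa17. Defa22 shared 72.7% of its stretches with Defa21, whose coding sequence is 99.3% identical. With stretches of 100 bases the unique share rose to 100% for Defa24, 99.7% for Defa30 and 59.7% for Defa22, and it was still 9.40% for Defa17.

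The same limit appeared across the cluster. Of its 28 genes, 13 had at most 1 count in any pool, and 11 of these 13 had fewer than 6% of their 50-base stretches unique, as against 0 of the 15 genes with more counts, in which the unique share ran from 7.76% to 71.9%. Defa25 (25.2% unique) and Defa27 (47.1%) were the exceptions, each with 1 count in all. How reads that fit several genes were counted is not given in the sources used here. Levels of single defensins are therefore levels of what was assigned to them, and a defensin near 0 cannot be read as silent. Outside the cluster the members were easier to separate, with 82.0% to 99.0% of 50-base stretches unique.

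Counted per kilobase of gene, as the mean over the 6 pools, Defa24 was the most abundant member, at 482 ± 230 CPM per kb (SD, n = 6). It was followed by Lyz1 (374 ± 262), Itln1 (235 ± 86.7), Defa30 (172 ± 76.3), Ang4 (104 ± 48.0), Mptx2 (71.0 ± 34.8), Defa22 (69.7 ± 63.2), Mmp7 (15.8 ± 9.36), Lyz2 (15.4 ± 5.21) and Defa17 (4.42 ± 2.28). Compared within each pool, Lyz1 stood above Itln1, Itln1 above Defa30, Defa22 above Mmp7 and Lyz2 above Defa17 in all 6 pools. Defa24 stood above Lyz1 in 5 pools, Defa30 above Ang4 in 5 and Ang4 above Mptx2 in 4, which were the 3 wt pools (132 ± 41.4 against 60.1 ± 37.0 CPM per kb, SD, n = 3) and Rbm47-IKO pool 2, while the Rbm47-IKO means were 76.9 ± 42.0 and 82.0 ± 35.9. Mptx2 stood above Defa22 in all 3 Rbm47-IKO pools (where Defa22 was at 41.7 ± 11.1) and below it in all 3 wt pools (97.7 ± 86.7), so that the place of Mptx2 between Ang4 and Defa22 joins opposite orders of the genotype means. Mmp7 stood above Lyz2 in 3 of 6 pools, which were Rbm47-IKO pools 1 and 2 and wt pool 1.

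**Figure D1:**
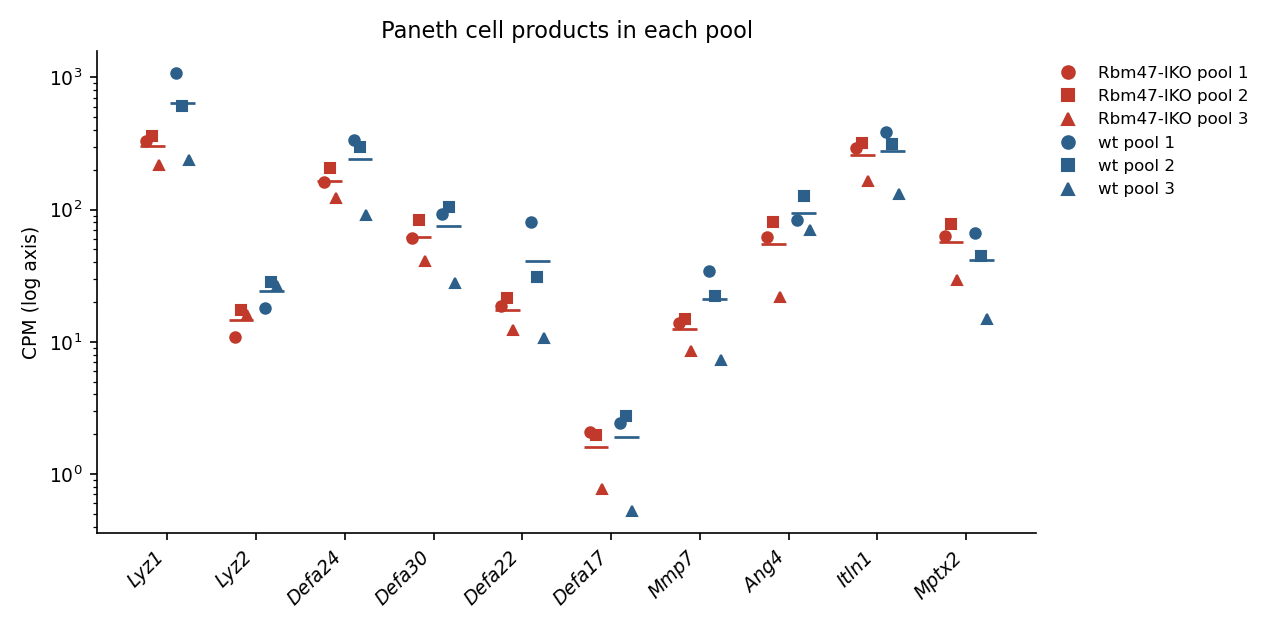
CPM of each of the 10 products on a log axis, with 1 point for each pool and a bar at the mean of the 3 pools of a genotype. The third pool of each genotype, drawn as a triangle, lies below the others for most genes, and the Rbm47-IKO and wt points overlap for every gene except Lyz2.

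None of the 10 products passed the threshold (adjusted p of 0.05 or less, edgeR quasi-likelihood test), where 2.70% of all genes tested did. DESeq2 called 1 of the 10, and 7.57% of all genes. Their median log2 fold change was -0.64 against -0.01 over all genes tested, with 9 of 10 values below 0 and only Mptx2 above. In the edgeR test 1 of them, Lyz2, had an unadjusted p below 0.05, as did 16.8% of all genes tested. That count rested on single pools and settings: it was 4 of 10 without wt pool 3 (2203 of 16942 genes), 4 with a block by pool number (2697 of 16425), 3 with no filter on low counts (2951 of 26093) and 2 without Rbm47-IKO pool 2 (1729 of 17001). Lyz2 was also the 1 member whose pools did not overlap between the genotypes, a pattern shown by 23.3% of all genes tested. Without wt pool 3 the median was -0.81, and without wt pool 1 it was -0.24, with none called in either case.

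Lyz1, at chr10:117287796-117292868, is the lysozyme that Paneth cells secrete, an enzyme that cuts bacterial cell walls. It measured 332, 360 and 217 CPM in Rbm47-IKO pools 1 to 3 and 1086, 607 and 236 in the wt pools. Both of the higher wt values exceeded every Rbm47-IKO value, but wt pool 3 fell among the Rbm47-IKO pools. The log2 fold change was -1.09 ± 0.48 (adjusted p = 0.315, edgeR), and it ran from -1.48 to -0.47 when single pools were left out.

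Lyz2, its neighbour at chr10:117277334-117282274, is the lysozyme typical of macrophages and other myeloid cells. It measured 10.9, 17.3 and 16.0 CPM in Rbm47-IKO and 17.9, 28.3 and 26.3 in wt, so that the lowest wt pool lay just above the highest Rbm47-IKO pool. The log2 fold change was -0.72 ± 0.23 (adjusted p = 0.162, edgeR; 0.0441 with DESeq2). The 12 myeloid markers examined beside it summed to 219 to 248 CPM in Rbm47-IKO and 201 to 244 in wt, and none of the 12 was called by edgeR, with 0 at an unadjusted p below 0.05, or by DESeq2. Csf1r, the receptor that defines macrophages, stood at 29.2, 35.3 and 33.6 CPM against 26.9, 43.3 and 25.0. Of 6 neutrophil markers, S100a8, S100a9 and Ly6g had at most 2 counts in any pool, while Mpo had 8 to 22, Csf3r 12 to 26 and Retnlg 1 to 10. Mpo and Csf3r, the 2 that were tested, were not called by edgeR (0 at an unadjusted p below 0.05) or DESeq2, and together summed to 0.888 to 0.982 CPM in Rbm47-IKO and 0.912 to 0.933 in wt. The part of these cells in the Lyz2 level was not tested.

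The lysozyme pair arose by duplication, and 95.0% of the coding bases are the same, yet Lyz1 exceeded Lyz2 in CPM 30.6, 20.8 and 13.6 times in Rbm47-IKO and 60.5, 21.5 and 9.0 times in wt, at nearly equal gene lengths. The 100 bases upstream of each start site, from RefSeq (GRCm38.p6, minus strand, 5′ to 3′), are shown because they are almost the same while the levels are not. Lyz1 is at chr10:117292869-117292968 and Lyz2 at chr10:117282273-117282372, and capitals mark the 8 bases that differ.
Lyz1 upstream: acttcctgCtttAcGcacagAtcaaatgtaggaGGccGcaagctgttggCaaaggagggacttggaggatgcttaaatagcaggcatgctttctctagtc
Lyz2 upstream: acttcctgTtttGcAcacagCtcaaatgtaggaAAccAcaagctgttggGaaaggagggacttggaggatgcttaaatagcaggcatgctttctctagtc

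The differences lie in the distal part of this window, and the bases next to the start site are identical. The ratio of Lyz1 to Lyz2 overlapped between the genotypes, and its highest and lowest values were both in wt pools.

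Defa24 (chr8:21734494-21735471) measured 163, 205 and 123 CPM in Rbm47-IKO and 334, 297 and 90.4 in wt. Wt pools 1 and 2 were above every Rbm47-IKO pool and wt pool 3 was the lowest of all, and the log2 fold change was -0.55 ± 0.44 (adjusted p = 0.611, edgeR), at -0.94 without wt pool 3 and -0.24 without wt pool 1. Defa30 (chr8:21134642-21135598) showed the same split of the wt pools, at 60.7, 83.6 and 41.0 against 92.6, 105 and 28.0 CPM (log2 fold change -0.28 ± 0.46, adjusted p = 0.848, edgeR). Relative to Defa24, Defa30 was steady: there were 0.373, 0.409 and 0.333 counts of it for each count of Defa24 in Rbm47-IKO and 0.278, 0.354 and 0.310 in wt, with overlap.

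Defa22 (chr8:21162277-21163249) was the member with the widest wt range. It stood at 18.6, 21.5 and 12.4 CPM in Rbm47-IKO and at 81.2, 30.9 and 10.7 in wt, a 7.57-fold range over the wt pools. Its log2 fold change of -1.23 ± 0.62 (adjusted p = 0.385, edgeR) fell in size to -0.25 without wt pool 1. Defa17 (chr8:21655780-21656735), with only 378 counts in all, measured 2.08, 1.98 and 0.77 CPM against 2.44, 2.74 and 0.52 (log2 fold change -0.24 ± 0.63, adjusted p = 0.915, edgeR). The 4 genes summed gave a log2 fold change of -0.55 (adjusted p = 0.633, edgeR), with adjusted p from 0.158, without wt pool 3, to 0.936.

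Mmp7 (chr9:7692090-7699585), the protease that activates the prodefensins, measured 13.9, 14.8 and 8.51 CPM in Rbm47-IKO and 34.1, 22.4 and 7.30 in wt. Here too wt pools 1 and 2 were above all Rbm47-IKO pools, while wt pool 3 was below them, and the log2 fold change was -0.77 ± 0.49 (adjusted p = 0.505, edgeR), at -1.18 without wt pool 3 and -0.25 without wt pool 1. An annotated transcript of AV064505 overlaps its exons and shared 7.36% of its 50-base stretches. Ang4 (chr14:51763878-51773590), a secreted ribonuclease with activity against bacteria, followed the other products less closely from pool to pool than any member except Lyz2. It measured 61.8, 79.9 and 21.8 CPM against 83.9, 127 and 70.2, so that its low value was in Rbm47-IKO pool 3 and wt pool 3 was less far from the other wt pools (log2 fold change -0.78 ± 0.44, adjusted p = 0.44, edgeR). With single pools left out it ran from -1.16 without Rbm47-IKO pool 2 to -0.40 without Rbm47-IKO pool 3.

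Itln1 (chr1:171518122-171535294) encodes intelectin, a lectin that binds bacterial sugars and is made by goblet cells as well as Paneth cells. It measured 294, 319 and 164 CPM in Rbm47-IKO and 388, 313 and 132 in wt, and its log2 fold change of -0.10 ± 0.40 (adjusted p = 0.946, edgeR) was the smallest of the 10 in size. The summed level of 7 goblet cell markers was 22137 to 25614 CPM in Rbm47-IKO and 16586 to 19445 in wt, which did not overlap. Fcgbp (mean 14330 against 11092 CPM) and Clca1 (3855 against 2542) made up most of this sum. Singly, only these 2 of the 7 did not overlap, a pattern shown by 23.3% of all genes tested. Spink4 had a fold change below 0 (log2 -0.28). None of the 7 was called by edgeR, and 2 had an unadjusted p below 0.05, as did 16.8% of all genes tested. DESeq2 called Fcgbp and Clca1, and 7.57% of all genes tested. Muc2, the main intestinal mucin, stood at 1692 ± 67.1 against 1422 ± 276 CPM (SD, n = 3). The part of goblet cells in the Itln1 level was not tested. Mptx2 (chr1:173274461-173277756), a secreted pentraxin of the gut mucosa, was the member with a value above 0. It measured 63.5, 77.9 and 29.3 CPM against 66.0, 44.2 and 14.8 (log2 fold change 0.45 ± 0.53, adjusted p = 0.771, edgeR). The value was 0.050 without wt pool 3 and 0.95 without wt pool 1.

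**Figure D2:**
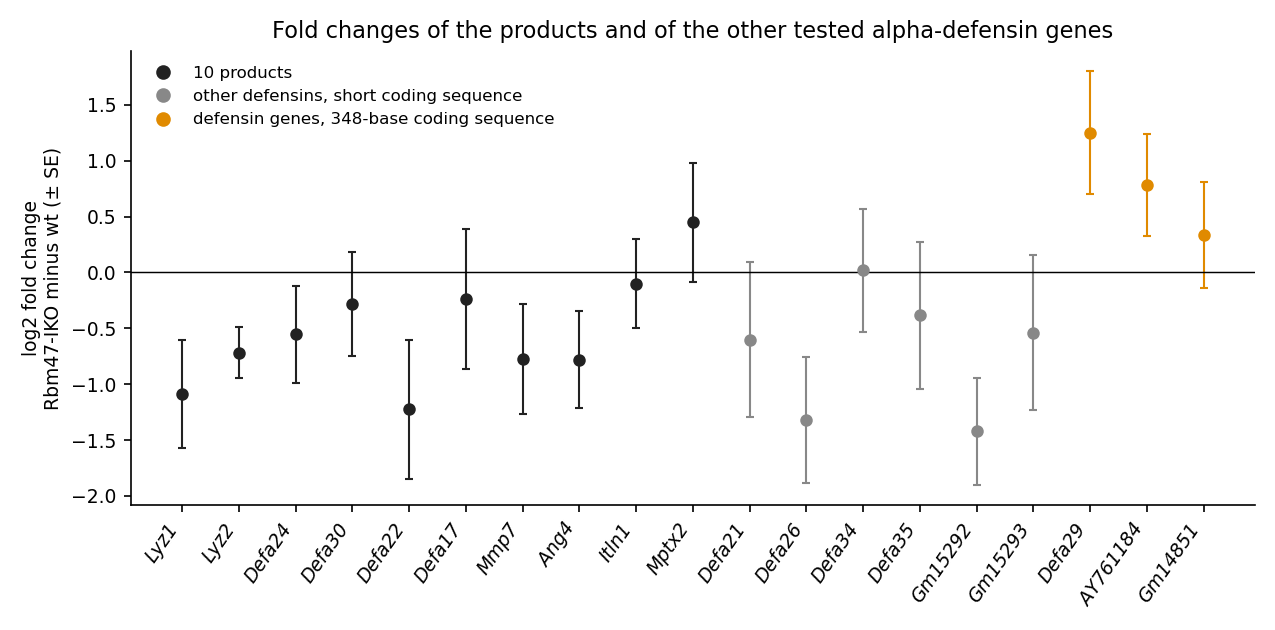
Log2 fold change (Rbm47-IKO minus wt, with its standard error) of the 10 products, of 6 other tested alpha-defensin genes with a short coding sequence, and of the 3 tested genes with a 348-base coding sequence. The products run from -1.23 to 0.45, and the 3 genes with the long coding sequence lie above 0.

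The mean level of the products differed more between pools of 1 genotype than between the genotypes, although not every product followed it. The mean log2 CPM of the 10 was 5.44, 5.69 and 4.72 in Rbm47-IKO pools 1 to 3 and 6.30, 6.07 and 4.65 in the wt pools. Lyz2 lay farther from this pattern (root mean square difference of centred log2 CPM 0.757) than the median of 7906 genes of at least 10 CPM (0.662), and Ang4 (0.562) and Mptx2 (0.525) were the next farthest members. The difference between the genotype means was -0.39, and the range within a genotype was 0.97 in Rbm47-IKO and 1.65 in wt. Pool 3 was the lowest of its genotype for 9 members in Rbm47-IKO and for 9 in wt, and wt pool 3 was the lowest of all 6 for 7 members. The 10 genes held 0.100%, 0.115% and 0.0656% of the counts in the Rbm47-IKO pools and 0.225%, 0.161% and 0.0590% in the wt pools.

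The wt pools were also more unlike each other. The highest wt pool exceeded the lowest by 1.58 to 7.57 times (median 4.10), and the highest Rbm47-IKO pool by 1.59 to 3.67 times (median 1.84), with the wider range in wt for 8 of 10 members. Smooth muscle markers summed to 361, 586 and 3302 CPM in Rbm47-IKO pools 1 to 3 and to 90.7, 2803 and 313 in wt. The highest sum was in pool 3 in Rbm47-IKO, which was the lowest of its genotype for 9 members, but in pool 2 in wt. The part of muscle in the level of the products was not tested. The 6 crypt and stem cell genes summed to 133, 122 and 129 against 139, 187 and 100 CPM, with the lowest value in wt pool 3. Whether the amount of crypt in the scraped mucosa sets the level of the products was not tested.

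The members were also read against each other. The level of each gene relative to the mean log2 CPM of the 10 products in its own pool, a measure chosen after the values were seen, did not overlap between the genotypes for 3 members, where 2.56% of all genes tested showed such a separation in either direction. The mean is made from the members, so this share is not a like-for-like background and nothing is read from it. Among the members the SD of the relative level over the wt pools ran from 0.085 for Itln1 to 1.10 for Lyz2. Mptx2 was higher, at 0.55, 0.59 and 0.16 in Rbm47-IKO against -0.25, -0.60 and -0.75 in wt (log2 units). Itln1 was higher too, at 2.77, 2.62 and 2.64 against 2.30, 2.22 and 2.39. Lyz1 was lower, at 2.94, 2.80 and 3.04 against 3.79, 3.18 and 3.23. Since the mean includes each member, a shift of 1 member moves the others slightly in the opposite direction.

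Ratios between genes of the same pool, also chosen after the values were seen, restate such relative levels in counts and are no added support. For each count of Mmp7 there were 4.57, 5.26 and 3.44 counts of Mptx2 in Rbm47-IKO and 1.94, 1.98 and 2.03 in wt, a 2.23-fold difference of the means, with an SD of 0.048 over the wt pools. The wt pools, which differed 4.45-fold in the level of Mptx2, thus hardly differed in this ratio. Lyz1 per Mmp7 was 23.9, 24.3 and 25.5 against 31.9, 27.1 and 32.4, and Itln1 per Mmp7 was 21.2, 21.5 and 19.3 against 11.4, 14.0 and 18.1, both without overlap. Ang4 per Mmp7 and Defa22 per Defa24 did overlap.

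**Figure D3:**
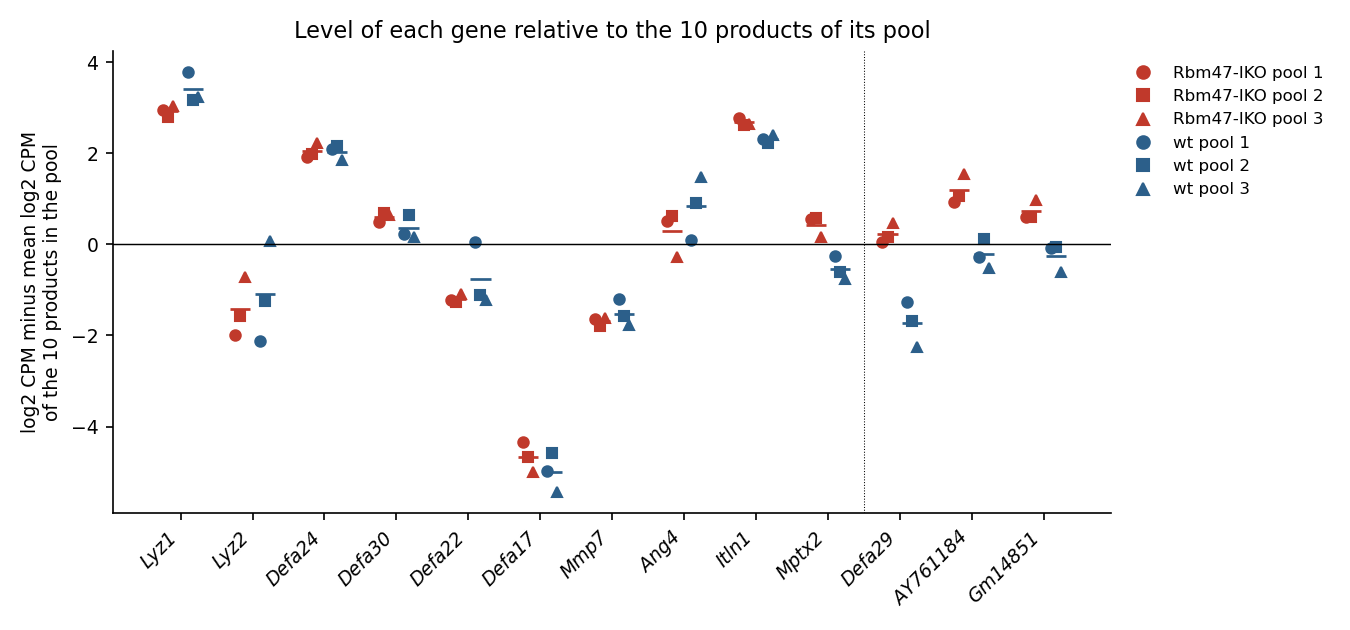
Level of the 10 products and of 3 further defensin genes relative to the mean of the 10 products in the same pool (log2 units; 1 point per pool, bar at the mean of the genotype). Mptx2, Defa29, AY761184 and Gm14851 lie higher in every Rbm47-IKO pool than in any wt pool.

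When the mean of the 10 products was entered as a covariate in the edgeR model of all genes, 1.41% of genes were called. This fit was also a choice made after the values were seen, so its adjusted p-values and calls support no conclusion. Among the members Mptx2 was called, with a log2 difference of 1.08 ± 0.13 (adjusted p = 0.0275), and the other 9 were not. With the mean of the 9 members other than Mptx2 it was 1.24 (adjusted p = 0.0293). The call was lost, with the value between 1.01 and 1.33 over the 6 such fits, when any of the Rbm47-IKO pools or wt pool 3 was left out, and the adjusted p reached 0.671 without wt pool 3.

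Other genes of the alpha-defensin family went in both directions relative to the products. Beyond the 4 members, 24 genes of the family were in the tables, 9 of them at 0 counts throughout, and 9 were tested. None of the 9 was called by edgeR or DESeq2, and 2 had an unadjusted p below 0.05, as did 16.8% of all genes tested. Their median log2 fold change was -0.38. Defa21 measured 24.4, 37.8 and 17.9 CPM in Rbm47-IKO and 84.2, 29.0 and 8.56 in wt, with overlap (log2 fold change -0.60 ± 0.70, adjusted p = 0.764, edgeR). Relative to the products, 4 of the 9 were higher without overlap, 2 were lower and 3 overlapped (2.56% of all genes did not overlap in this measure, which is no like-for-like share here either).

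The genes that were higher in this sense were Defa34 and 3 genes of a distinct sequence type. In Defa29, AY761184 and Gm14851 (and in Gm7849 and Gm7861, which had at most 1 count in a pool) the coding sequence is 348 bases with 11 cysteine codons, whereas in the other 23 genes of the cluster it is under 300 bases with 6 or 7. RefSeq lists CRS1C, a cryptdin-related sequence, as another name of Defa29. The 3′ part from base 163, which holds the mature peptide, shows the contrast; capitals mark the cysteine codons.
Defa24, bases 163 to 279: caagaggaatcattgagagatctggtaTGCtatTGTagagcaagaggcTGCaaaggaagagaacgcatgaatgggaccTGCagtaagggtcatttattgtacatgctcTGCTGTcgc
Defa29, bases 163 to 348: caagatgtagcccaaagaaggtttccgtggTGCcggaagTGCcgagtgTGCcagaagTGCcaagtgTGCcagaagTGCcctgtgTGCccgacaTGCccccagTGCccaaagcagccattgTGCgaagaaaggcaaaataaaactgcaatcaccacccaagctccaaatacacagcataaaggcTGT
AY761184, bases 163 to 348: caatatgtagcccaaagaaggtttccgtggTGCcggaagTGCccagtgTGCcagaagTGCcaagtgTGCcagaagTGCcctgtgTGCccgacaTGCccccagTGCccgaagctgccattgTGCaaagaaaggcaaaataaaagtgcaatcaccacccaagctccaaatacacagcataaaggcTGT

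Defa24 has the 6 spaced cysteines of a classical alpha-defensin in this stretch, and Defa29 and AY761184 have 11, most of them in a run of closely spaced repeats. Defa29 and AY761184 share 96.6% of their coding bases, and 56.6% of the 50-base stretches of Defa29, 66.5% of those of AY761184 and 44.4% of those of Gm14851 are unique, with 136 of the 302 stretches of Gm14851 also in Defa29. With 100 bases the unique shares are 89.0%, 100% and 82.1%. Against Defa24 the coding identity of Defa29 is 65.0%, lower than with AY761184.

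Defa29 (chr8:21325887-21327020) measured 45.1, 58.1 and 36.4 CPM in Rbm47-IKO and 32.7, 20.8 and 5.21 in wt, without overlap (log2 fold change 1.25 ± 0.55, adjusted p = 0.307, edgeR). AY761184 (chr8:21702519-21703645), also without overlap, measured 82.9, 108 and 77.3 against 65.1, 72.8 and 17.5 (0.79 ± 0.46, adjusted p = 0.455, edgeR). Gm14851 (chr8:21095074-21096050) measured 65.5, 78.6 and 52.1 against 74.5, 64.6 and 16.4 (0.34 ± 0.48, adjusted p = 0.819, edgeR). On their own, then, these genes did not pass the test either. With single pools left out the log2 fold change ran from 0.81 to 1.84 for Defa29, from 0.38 to 1.12 for AY761184 and from -0.084 to 0.69 for Gm14851. None of them was called in these fits.

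In ratios to Defa24, which were chosen after the values were seen, the pools of these genes did not overlap. How often ratios of other genes do so was not tested, so no conclusion is drawn from them. There were 0.277, 0.284 and 0.295 counts of Defa29 for each count of Defa24 in Rbm47-IKO and 0.0979, 0.0699 and 0.0577 in wt, a 3.80-fold difference. AY761184 gave 0.509, 0.527 and 0.627 against 0.195, 0.245 and 0.194, and Gm14851 gave 0.402, 0.384 and 0.422 against 0.223, 0.217 and 0.181. In the edgeR fit with the mean of the products as covariate the log2 difference was 2.09 ± 0.26 for Defa29 (adjusted p = 0.0275), 1.42 ± 0.26 for AY761184 (0.0646) and 1.04 ± 0.21 for Gm14851 (0.0765). Both this fit and Defa29 were chosen after the values were seen, so these adjusted p-values and calls support no conclusion. The call of Defa29 was lost in the same 4 fits with a pool left out as that of Mptx2, with values from 1.46 to 2.26. Without wt pool 3 AY761184 fell to 0.69 (adjusted p = 0.698) and Gm14851 to 0.43 (0.708), and without wt pool 2 both were called, at 1.57 (0.0191) and 1.10 (0.0438).

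Summed by sequence type, the 348-base genes held 40.9%, 40.2% and 45.1% of all alpha-defensin counts in the Rbm47-IKO pools and 21.9%, 24.8% and 21.5% in the wt pools. The means were 42.1% ± 2.65 and 22.7% ± 1.80 (SD, n = 3), and no test is given because the grouping was chosen after the values were seen. The 2 genes that were lower relative to the products, both with a short coding sequence, were Defa26 and Gm15292, with 1.20 ± 0.43 against 3.01 ± 1.86 CPM and 0.946 ± 0.345 against 2.54 ± 1.18 CPM.

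**Figure D4:**
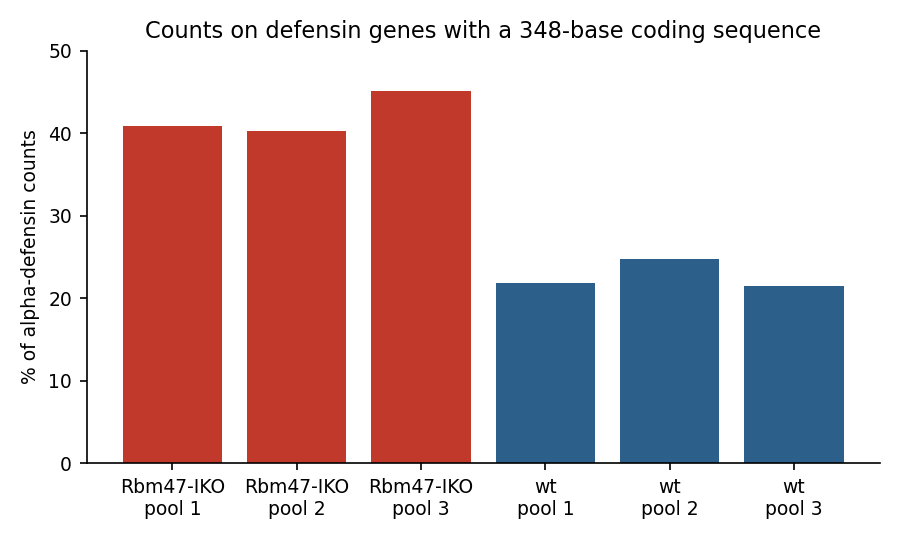
Percent of all alpha-defensin counts of a pool that lie on the 5 genes with a 348-base coding sequence. The Rbm47-IKO pools sit between 40.2% and 45.1%, and the wt pools between 21.5% and 24.8%.

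Markers of the ileum and of the proximal intestine were read beside these values. Fabp6, the ileal bile acid binding protein, measured 31.7, 39.8 and 18.6 CPM in Rbm47-IKO and 17.2, 3.98 and 2.55 in wt, without overlap (log2 fold change 1.93 ± 0.68, adjusted p = 0.201, edgeR). The 5 ileal markers summed to 570, 618 and 457 CPM against 439, 311 and 313, and 4 of the 5 had a fold change above 0. The exception was Slc10a2, the ileal bile acid transporter, at 17.2, 7.84 and 14.6 against 44.3, 3.40 and 7.05 CPM (log2 fold change -0.47). None of the 5 was called by edgeR, and 3 had an unadjusted p below 0.05, as did 16.8% of all genes tested. DESeq2 called Slc51a and Slc51b, and 7.57% of all genes tested. The 5 proximal markers summed to 4981 to 6174 CPM against 4247 to 5666, all 5 with a fold change above 0 and none called by edgeR (2 at an unadjusted p below 0.05) or DESeq2, and Gata4, a factor of the proximal intestine, stood at 168 ± 13.3 against 125 ± 19.7 CPM (SD, n = 3). The paper gives the sampled stretch as jejunum, which the labels do not state. The part of the sampled stretch of intestine in the defensin make-up was not tested.

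Of 12 other secreted or granule genes of Paneth cells, 9 were tested and none was called by edgeR with all pools. An unadjusted p below 0.05 was seen for 2, and for 16.8% of all genes tested. DESeq2 called the same pair, Mptx1 and Pnliprp2, and 7.57% of all genes tested. Slc30a2, a zinc transporter of the granules, measured 102 ± 20.1 CPM in Rbm47-IKO and 90.2 ± 8.14 in wt, Pnliprp2, a lipase, 76.7 ± 19.3 and 42.5 ± 15.3, and Kcnn4, a potassium channel, 14.8 ± 4.92 and 12.6 ± 3.59 (SD, n = 3). Mptx1, the paralog of Mptx2 with 91.9% of coding bases the same, went the other way. It measured 0.52, 0.58 and 0.25 CPM against 0.82, 2.74 and 2.41, without overlap, at a far lower level than Mptx2 (log2 fold change -2.14 ± 0.54, adjusted p = 0.0905, edgeR, and 0.00882 with DESeq2). With single pools left out it ran from -2.51 to -1.84, and edgeR called it only without wt pool 1 (adjusted p = 0.0398).

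None of the 12 factors and receptors that specify or place Paneth cells was called by edgeR or DESeq2. In edgeR 3 had an unadjusted p below 0.05, as did 16.8% of all genes tested. Of the 12, 10 had a fold change above 0, and the median log2 fold change was 0.15. Ctnnb1, the beta-catenin of Wnt signaling, measured 991 ± 88.7 CPM against 1185 ± 157, Fzd5, the Wnt receptor used in Paneth cell maturation, 279 ± 14.5 against 249 ± 30.6, and Xbp1, a factor of the secretory stress response, 197 ± 20.3 against 198 ± 12.7.

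In the list of 10 granule and autophagy genes, 2 were called by edgeR and by DESeq2, where 2.70% and 7.57% of all genes tested were. Ripk2, the kinase that signals from the bacterial sensor Nod2, rose from 5.35, 5.40 and 4.06 CPM in wt to 11.6, 12.2 and 11.9 in Rbm47-IKO (log2 fold change 1.27 ± 0.17, adjusted p = 0.0145, edgeR). Atg5, needed for autophagy and for Paneth cell granules, fell from 30.8, 37.9 and 41.1 CPM to 23.5, 23.1 and 18.1 (-0.76 ± 0.15, adjusted p = 0.0487, edgeR). The other 8 were not called, among them Ern1 (48.6 ± 4.22 against 48.2 ± 8.60 CPM), Rab27a (34.2 ± 3.67 against 30.3 ± 1.31) and Atg16l1 (34.2 ± 2.72 against 33.8 ± 4.30).

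Of 7 niche signals 6 were tested, and 1 was called by edgeR and by DESeq2 (2.70% and 7.57% of all genes tested). This was Bst1, an ectoenzyme of Paneth cells that answers to nutrient state. It fell from 249, 268 and 315 CPM in wt to 170, 188 and 160 in Rbm47-IKO (-0.68 ± 0.13, adjusted p = 0.0393, edgeR). Dll1, a Notch ligand, measured 75.3 ± 5.23 CPM against 65.3 ± 3.96, and Tgfa, a growth factor, 58.1 ± 4.22 against 45.4 ± 8.03. All of these genes are also expressed outside Paneth cells. The calls of Ripk2, Atg5 and Bst1 held without wt pool 1 (that of Ripk2 also without wt pool 2). They were lost when any other pool was left out, where the edgeR adjusted p reached 0.11 for Ripk2, 0.211 for Atg5 and 0.187 for Bst1. The log2 fold changes stayed similar over these 6 fits, at 1.15 to 1.34 for Ripk2, -0.87 to -0.65 for Atg5 and -0.76 to -0.58 for Bst1. With RLE factors Atg5 (edgeR adjusted p = 0.0587) and Bst1 (0.0518) were lost, with limma-voom Atg5 (0.0529), and with a block by pool number all 3 (0.053, 0.116 and 0.107). The fit with the products' mean as covariate also lost Atg5 (0.0910) and Bst1 (0.0677). DESeq2 called all 3 (adjusted p = 3.0e-08 for Ripk2, 0.00133 for Atg5 and 0.000159 for Bst1). Over the 10 planned settings that kept every pool, the log2 fold changes were 1.23 to 1.28, -0.79 to -0.75 and -0.71 to -0.67 in that order.

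The promoters of the members were searched on both strands for the TATA box (TATAAA) and for 3 forms of the motif bound by TCF/LEF, the factors of Wnt signaling (CTTTGAA; the form CTTTGAT; the form CTTTGTT). In the RefSeq annotation used, 9 promoters of 8 members were matched, each with 250 bases before and 50 after the start. No promoter was matched for Defa17 or Defa24. CTTTGAT was present in 4 of these 9, in Defa22, Defa30 and the 2 overlapping windows of Mmp7, which hold the same site, so that 3 of 8 genes carried it. It was in 3.73% of all 32851 promoters of the same length. TATAAA was present in 3 of the 9, of the same genes, and in 13.6% of all promoters. The forms CTTTGAA (in 5.14% of all promoters) and CTTTGTT (in 5.85%) were in none of the 9. The 100 bases upstream of Defa22, chr8:21162177-21162276 (plus strand), carry CTTTGAT on the opposite strand, read here as ATCAAAG, and TATAAA nearer the start, both in capitals.
Defa22 upstream: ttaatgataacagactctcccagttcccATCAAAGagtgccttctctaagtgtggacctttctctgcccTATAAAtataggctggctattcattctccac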

How the data were processed

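RNA of scraped small intestinal mucosa was sequenced after oligo(dT) selection in 6 pools, grouped by the genotype in their labels. The authors deposited, for each pool, a table with the count of reads on 38561 Ensembl genes, not normalized. The deposited CPM and RPKM columns are those counts scaled to the column total and to gene length, and were not used further. The submitters' processing notes name STAR 2.5.1a, Subread, featureCounts 1.4.6-p5 and GRCm38. Their settings, use of strand and treatment of multimapping reads are not given in the sources used here. No value column belonged to another sample.

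Counts of genes past filterByExpr were scaled by TMM and tested with the edgeR 4.0.16 quasi-likelihood test (R 4.3.3), calling genes at a p of 0.05 or less after Benjamini-Hochberg adjustment. Printed CPM values use the TMM library sizes, and log2 CPM a prior count of 2. A check of the test on simulated counts was made, but its outcome is not given here. Symbols, transcripts and exons came from GENCODE M21 (GRCm38), and promoters from RefSeq. An exact permutation test of a 3-against-3 design has a smallest p of 0.1. Litters and days of the pools are not stated, so p-values measure only the spread between these pools.

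The members and gene lists were chosen with earlier results of these data known. The rule for named genes took the members, Rbm47, in each Paneth cell list the called genes and the 3 with the highest mean CPM, in each marker list its first gene, and the 5 genes most like the members over the pools. Defa29, Defa26, Defa34, Gm15292, Mptx1, the ratios, the relative levels, the fits with a covariate and the grouping by coding length were chosen after their values were seen. Alternatives were DESeq2 1.42.0, limma-voom (limma 3.58.1), other scalings and filters, a robust fit, a replicate block by pool number, and leaving out each pool.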

Additional observations from a re-analysis of the deposited data

How the results depend on the processing

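None of the 10 products was called by edgeR under any scaling, filter, robust fit or block, or with a pool left out; DESeq2 called 1 (Lyz2) and the covariate fit 1 (Mptx2). Over all genes the edgeR count of 443 became 1243 with DESeq2, 100 with the replicate block, 231 with the covariate, and 0 to 431 with 1 pool left out. Without Rbm47-IKO pool 2 no gene was called (1729 at an unadjusted p below 0.05), and without wt pool 3 only 11. Pool numbers are not stated to pair the pools. The correlation of same-numbered deviations was 0.41, -0.00 and -0.28, and that of the other pairs ran from -0.54 to 0.48. Deviations from a mean of 3 pools are tied to each other, so these values cannot decide whether the pools were paired. Under the block, which called 0 products, the median of the products was -0.47. The median of the 10 products ran from -0.81 to -0.24 with a pool left out. The summed log2 fold change of the 4 defensin members was -0.55 and -0.95 to -0.21 with a pool left out; with the covariate it was 0.070. That of all alpha-defensin genes, -0.15, became 0.067 with limma-voom, 0.064 with the block, 0.52 with the covariate, and -0.56 to 0.24 with a pool left out. With a pool left out the sign also turned for Itln1 (-0.43 to 0.22), Defa17 (-0.68 to 0.13), Defa30 (-0.67 to 0.039), Defa21 (-1.08 to 0.51) and Gm14851 (-0.084 to 0.69). With the covariate, by construction read beside the products' mean, Itln1 was 0.35, Defa17 0.53, Defa24 0.038, Defa30 0.30 and Defa21 0.45. For the other changes the cause was not tested. What limits these comparisons was not tested.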

Other observations

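The genes of at least 10 CPM whose pattern over the 6 pools lay nearest to the mean of the 10 products, by the root mean square difference of centred log2 CPM, were Spink4 (0.24), Mcm5 (0.28), Guca2a (0.31), Rrm1 (0.34) and Ccl6 (0.34), where the median of 7906 candidates was 0.66. Among the products themselves the difference, from a mean that includes them, was smallest for Defa24 (0.13) and largest for Lyz2 (0.76). Spink4, a peptide of goblet cells, measured 86.5, 104 and 63.9 CPM in Rbm47-IKO and 136, 107 and 64.8 in wt. Mcm5 and Rrm1, which serve DNA replication, measured 15.5, 13.0 and 8.64 against 19.9, 14.9 and 9.22, and 19.8, 17.8 and 12.9 against 25.5, 20.8 and 14.6. Guca2a, the hormone guanylin, measured 129, 181 and 142 against 224, 232 and 103, and Ccl6, a chemokine, 46.4, 56.7 and 39.9 against 76.3, 64.1 and 45.4. The 5 genes had edgeR adjusted p-values from 0.432 to 0.796.

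Crypt genes did not all follow the products. Of the 6 crypt and stem cell genes 4 had a fold change above 0, and the median log2 fold change was 0.19. None was called by edgeR, and 1 had an unadjusted p below 0.05, as did 16.8% of all genes tested. Olfm4, a stem cell gene of the crypt chosen after its values were seen, measured 16.8, 16.4 and 12.3 CPM in Rbm47-IKO and 43.0, 79.7 and 20.7 in wt. Its pools did not overlap, a pattern shown by 23.3% of all genes tested. The log2 fold change was -1.65 ± 0.43 (edgeR adjusted p = 0.0974). DESeq2 called 1 of the 6, Olfm4, and 7.57% of all genes tested. Lgr5, the stem cell receptor, measured 6.82, 7.29 and 4.72 against 5.12, 7.30 and 4.17, with overlap. Of plasma cell genes, Jchain measured 52.2, 97.2 and 86.9 against 134, 79.7 and 108, and the 6 genes of that list summed to 56.4 to 108 CPM in Rbm47-IKO and 90.6 to 145 in wt, with none called by edgeR or DESeq2 and 0 at an unadjusted p below 0.05.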
